A study of Mus musculus with 33 samples.

Results

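Cdr1as and the locus it comes from on the mouse X chromosome were followed through 33 brain RNA libraries. The members were the 3 features named Cdr1as, C230004F18Rik and Cdr1, chosen by name among 38393 features in each of 5 deposited count tables. Cdr1as is a circular RNA, C230004F18Rik (ENSMUSG00000071753) is the long noncoding host gene whose transcripts contain the circularised exon, and Cdr1 (ENSMUSG00000090546) is a protein-coding gene annotated on the opposite strand of that exon. All mice were C57Bl/6J males aged 1 month, so each carried a single copy of this X-linked locus. Experiment 1A compared cerebella of 4 CyrMut mice, in which the miR-7 site of the long noncoding RNA Cyrano is mutated, with those of 3 wild-type (WT) mice. Experiment 1B compared cerebella of 4 CyrKO mice, labelled Cyrano–/–, and of 4 Mir7DKO mice, labelled Mir7a1–/–; Mir7b–/–, with those of 4 WT mice that served both comparisons. Experiment 2 compared 3 Mir7DKO with 4 WT cerebella and 3 Mir7DKO with 4 WT cortices. The submitters describe the replicates as biological, made WT libraries anew for each experiment, and compared libraries only within one. The labels do not say which bases were changed or deleted in each mutant. No mouse lacked Cdr1as itself, and the third miR-7 gene, Mir7-2, is not named among the deleted ones.

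Circular RNAs form when a downstream splice site is joined to an upstream one, which leaves a closed loop with no cap and no poly(A) tail. Cdr1as is an abundant neuronal example that binds Argonaute proteins loaded with the microRNA miR-7 at a great many seed matches, and miR-671 directs its slicing through 1 site of more extensive pairing. Cyrano is known for a site of extensive pairing that promotes the destruction of miR-7. The libraries were made from poly(A)-selected RNA, so a circular RNA reached them only in part, and its level here is the captured level. Counts per feature also do not tell the circle from linear RNA that holds the same exon.

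The authors' Cdr1as feature carries no coordinates. In the GENCODE M21 annotation (GRCm38) the host gene runs over chrX:61116378-61292484 on the + strand, and the shortest host exon that holds all of Cdr1 is exon 6 of 7 of transcript C230004F18Rik-206, chrX:61183248-61186174, 2927 bases long. Cdr1 covers 53.1% of it, from chrX:61184005-61185558 on the - strand. Of 11 annotated host transcripts, 2 hold the whole exon. How much of the Cdr1as counts, including those left in a mutant, came from such linear RNA was not tested. The sequences of the microRNAs are shown first, because their seeds define every site counted here; they come from RefSeq (GRCm38.p6), and capitals mark the seed, bases 2 to 8.
miR-7a-5p: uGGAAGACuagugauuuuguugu
miR-7b-5p: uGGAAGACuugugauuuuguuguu
miR-671-5p: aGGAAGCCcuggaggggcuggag
The pair of miR-7 forms share 1 seed and differ at 1 of their first 23 bases, so a seed match cannot tell them apart.

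The exon was a tandem array of miR-7 seed matches. The 6 letters TCTTCC, which pair with bases 2 to 7 of miR-7, occurred 139 times on the + strand, 47.5 times per kb. With the flanking letters 34 of these were 8mers (GTCTTCCA), 89 were 7mers that extend to base 8 (GTCTTCC), 7 were 7mers that end in A (TCTTCCA) and 9 were bare 6mers, so 130 matched at least 7 letters. Neighbouring sites lay 16 to 54 bases apart, and 100 of the 138 spacings were exactly 18 bases. The kinds of site were not spread evenly, as the map of sites along the exon shows. The 757 bases before the Cdr1 span held 28 of the 34 8mers. The span of Cdr1, whose protein is known as a run of short repeats, held 77 of the 89 7mers that extend to base 8, and 2 8mers. A stretch of 30 bases that holds 2 sites is shown here for the pattern, with the 6 letters of each site in capitals, at chrX:61183268-61183297 on the + strand.
Repeat: ccaaggTCTTCCaacatctccaggTCTTCC
No transcript of another gene held as many sites. The other exons of the same transcript held 1 site in 427 bases. Of 141767 annotated transcripts, 46% held at least 1 copy of TCTTCC on their own strand, and the median over the 25518 transcripts at least as long as the exon was 2. The next gene by count, D10Wsu102e, held 63 in a transcript of 123179 bases.

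**Figure D1:**
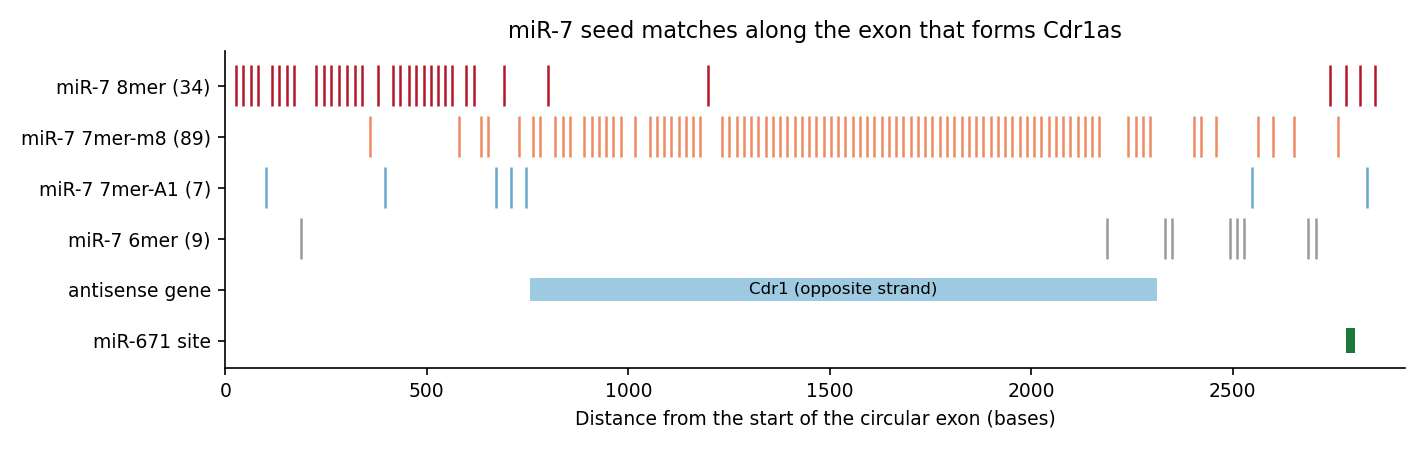
Positions of miR-7 seed matches by kind (upper 4 tracks, number of each in brackets), of the antisense gene Cdr1 and of the miR-671 site along the exon, in bases from its start. The 8mers lie mostly before Cdr1 and the 7mers that extend to base 8 mostly over it; the miR-671 site lies beyond Cdr1.

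Pairing beyond the seed set these sites apart from those of miR-671 and of Cyrano. The 3 stretches below are the best-paired miR-7a site of the exon (chrX:61183571-61183593, + strand), the best-paired miR-671 site of the exon (chrX:61186029-61186051, + strand) and the miR-7 site of Cyrano (chr2:119602136-119602161, + strand, in transcript 1700020I14Rik-202). Capitals mark bases that pair with the microRNA in the Watson-Crick manner.
Cdr1as, miR-7a site: tCcAgAAAAatcCaAGTCTTCCA
Cdr1as, miR-671 site: tTCCAGCatCTCCAGGGCTTCCa
Cyrano, miR-7b site: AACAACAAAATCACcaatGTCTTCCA
The miR-7a site paired at 16 of 23 bases, with its longest run over bases 1 to 9 of the microRNA. Against miR-7b the same site paired at 17 of 24 bases, with its longest run over bases 1 to 11. The miR-671 site paired at 19 of 23 bases with an unbroken run from base 2 to base 14. That run covers the centre of the microRNA, opposite which Argonaute cuts the target RNA. The Cyrano site joined an 8mer seed match to a run of 14 bases opposite bases 11 to 24 of miR-7b. Shortly upstream of the 139 sites in the exon, the longest run complementary to either miR-7 form from its base 9 onward was 7 bases.

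Levels are given in CPM, counts scaled to a common library size with TMM factors within each comparison. Libraries held 6.888 to 24.94 M counts. Cdr1as had 304441 counts in all, between 0.009012% and 0.163% of a library, and C230004F18Rik had 6249. Both passed the filter on low counts in every comparison, and Cdr1, with 4 counts in all, passed in none. Over the 11 WT cerebella Cdr1as ran from 648 to 1224 CPM with a median of 1043, and C230004F18Rik from 12.2 to 21.8 CPM with a median of 13.8. WT replicate 1 of experiment 1B was the low Cdr1as library, and no other WT cerebellum was under 960.02 CPM when set beside the mutants of its own experiment.

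Mutation of the miR-7 site in Cyrano left a small part of Cdr1as. In CyrMut cerebella Cdr1as stood at 122, 111, 94.6 and 113 CPM, against 1224, 1056 and 1043 CPM in WT cerebella. All 4 CyrMut libraries were low, and the 2 groups were separated by a wide gap. The mean was 110.03 ± 11.5 CPM in CyrMut (SD, n = 4) and 1108 ± 101 CPM in WT (n = 3). The log2 change (CyrMut over WT) was -3.33 with a standard error (SE) of 0.090, and 9.93% of the WT level remained (95% interval 8.66 to 11.4%; adjusted p = 9.745e-09, edgeR quasi-likelihood test with Benjamini-Hochberg adjustment). It was the single gene called among 14866, a background of 0.00673%, and 2.73% of genes were lower with no overlap between the groups. In bulk tissue, fewer cells with an RNA and less RNA per cell cannot be told apart. Markers of the choroid plexus, the epithelium that secretes cerebrospinal fluid, summed to 43.9 to 1178 CPM in CyrMut and 36.5 to 364 CPM in WT. CyrMut replicate 2, the lowest of its group in those markers, had 111 CPM of Cdr1as. With their log2 sum in the fit the change of Cdr1as was -3.37.

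The host gene gave no such response in the same libraries. C230004F18Rik was at 20.005, 13.6, 14.4 and 16.7 CPM in CyrMut, against 21.8, 13.3 and 13.8 CPM in WT. The groups overlapped throughout. Its log2 change was -0.02 (SE 0.18, 95% interval -0.42 to 0.38, adjusted p = 0.9972 by edgeR), so a loss of the size seen in Cdr1as lies far outside the interval. With the log2 sum of the choroid plexus markers in the fit it was -0.30 (SE 0.17, adjusted p = 0.9998 by edgeR).

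The Cyrano knockout also lowered Cdr1as. In CyrKO cerebella Cdr1as stood at 142, 89.4, 126 and 112 CPM, against 648, 988, 1017 and 1150 CPM in WT cerebella of experiment 1B. Every CyrKO library lay far below the lowest WT library. The mean was 117 ± 22.3 CPM in CyrKO (SD, n = 4) and 951 ± 214 CPM in WT (n = 4). The log2 change was -3.02 (SE 0.168), which left 12.3% of the WT level (95% interval 9.61 to 15.8%; adjusted p = 3.674e-07 by edgeR). It was 1 of 3 genes called among 13664, a background of 0.022% in either direction and 0.0146% lower, and 2.09% of genes were lower without overlap. Cyrano itself, the target of the knockout, was low but not at 0. It averaged 79.9 ± 5.96 CPM in CyrKO and 1844 ± 182 CPM in WT (n = 4 each). C230004F18Rik was at 14.8, 14.5, 18.6 and 19.5 CPM in CyrKO, against 18.1, 19.9, 12.9 and 12.2 CPM in WT. These overlapped, with a log2 change of 0.11 (SE 0.16, 95% interval -0.23 to 0.45, adjusted p = 0.8681 by edgeR).

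**Figure D2:**
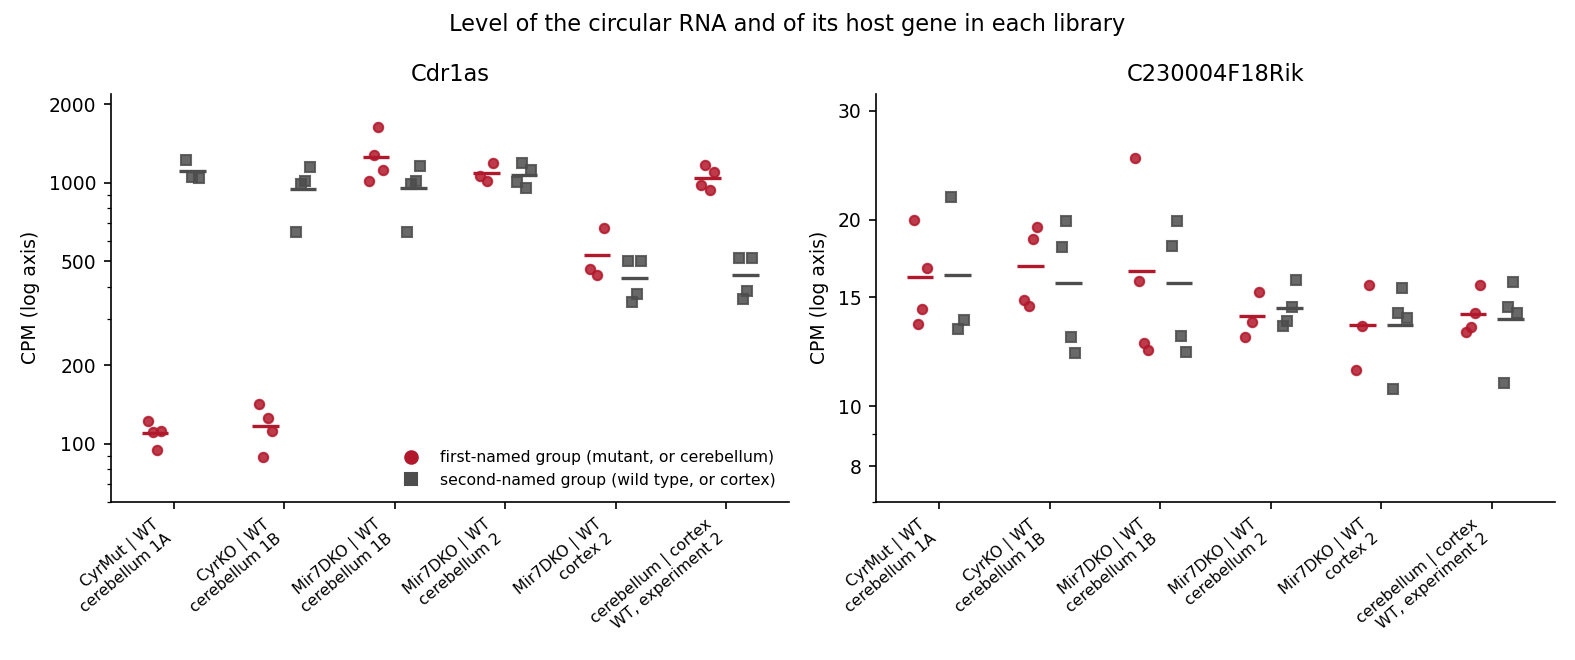
CPM of Cdr1as (left) and of C230004F18Rik (right) in each library on log axes, by comparison, with the mean of each group as a bar; the first-named group of each pair is drawn as circles and the second-named as squares. Cdr1as sits between 89.4 and 142 CPM in CyrMut and CyrKO cerebella and at 648 CPM or above in every other cerebellum, while the host gene overlaps between the groups of every pair.

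The site mutation and the knockout were not distinguishable in what they left of Cdr1as. The effect in CyrKO minus that in CyrMut was 0.31 on the log2 scale (SE 0.21, 95% interval -0.14 to 0.77, adjusted p = 0.9999 in the edgeR interaction test). The interval allows a difference of up to 1.70-fold, so the effects are not shown to be alike. For the host gene that difference was 0.13 (95% interval -0.43 to 0.69). The percentage of genes that differed between these effects was 0.0135. Under DESeq2 and each other alternative run the fall of Cdr1as was between 3.25 and 3.39 in CyrMut and between 2.91 and 3.16 in CyrKO, and passed each time.

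In the libraries labelled Mir7DKO the change of Cdr1as passed the threshold in none of the 3 comparisons. Mir7b, labelled as deleted, had 17, 12 and 2 counts in Mir7DKO cerebella of experiments 1B and 2 and in Mir7DKO cortex. Its counts were 0 in their WT groups. Where in the gene these reads lie is not known, and what they mean for the deletion was not tested. Mir7-1, which gives rise to miR-7a, is the Mir7a1 of the labels and so is also labelled as deleted. It had 11, 8 and 1 counts in the same Mir7DKO groups and 9, 5 and 1 in their WT groups. What the Mir7-1 reads mean for its deletion was not tested either. These few counts on hairpin genes do not measure the mature microRNA, and the groups are called by their labels. In experiment 1B Cdr1as stood at 1018, 1274, 1634 and 1121 CPM in Mir7DKO cerebella, against 648, 988, 1019 and 1157 CPM in WT. The groups overlapped, since the lowest Mir7DKO library lay under the 2 highest WT libraries. The mean was 1262 ± 270 CPM in Mir7DKO and 953 ± 216 CPM in WT (SD, n = 4 each), and the log2 change was 0.41 (SE 0.169, adjusted p = 0.9997 by edgeR; DESeq2 adjusted p = 0.9991). Its 95% interval, 0.04 to 0.77, is not adjusted for the number of genes. The background of this comparison was 0.00713% of genes called, and 3.3% of genes changed by at least as much as Cdr1as. Leaving out WT replicate 1 or Mir7DKO replicate 3 gave changes of 0.26 each.

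RNAs without a poly(A) tail, which the selection should remove, varied between libraries of experiment 1B. The summed level of Rn7sk, Rpph1, Rmrp, Terc, Rny1 and Rny3, a list of 6 short noncoding RNAs chosen after seeing the data, was 3.39, 5.68, 9.02 and 7.83 CPM in Mir7DKO and 1.29, 2.99, 6.17 and 5.91 CPM in WT. Rn7sk made up most of each sum, with 1.29 of 1.29 CPM in WT replicate 1 and 6.78 of 9.02 CPM in Mir7DKO replicate 3. Of the 6 RNAs, 2 passed the filter on low counts in this comparison and 1 in every other comparison. The sum is thus low and close to a measure of 1 RNA. The WT library lowest in these RNAs was also lowest in Cdr1as, and the Mir7DKO library highest in them was highest in Cdr1as. Relative to their group means, the 12 libraries of experiment 1B had a Pearson correlation of 0.61 between both levels, which is a description over libraries of 1 experiment; it was -0.38 over the 14 libraries of experiment 2. With the log2 of that sum as a covariate, a fit added after seeing the data, the Mir7DKO change of Cdr1as was 0.15 (SE 0.11, adjusted p = 0.9992 by edgeR), while it was -2.98 in CyrKO and -3.31 in CyrMut. In experiment 2 the same fit gave 0.04 in Mir7DKO cerebellum and 0.41 in Mir7DKO cortex (SE 0.10, adjusted p = 0.4293 by edgeR), so it lowered the change in 1 comparison and raised it in another. The sums were 2.10 to 4.96 CPM in CyrKO, within the range of WT.

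**Figure D3:**
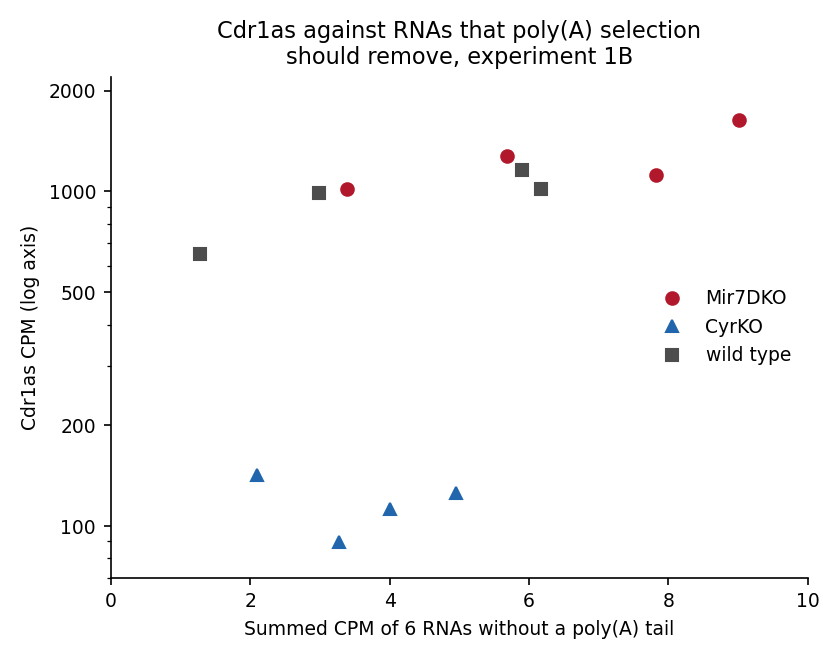
Cdr1as CPM (log axis) against the summed CPM of 6 RNAs without a poly(A) tail in the 12 cerebella of experiment 1B, 1 point a library. Rn7sk makes up most of each sum. The Mir7DKO library with the highest sum, 9.02, has 1634 CPM, the WT library with the lowest sum, 1.29, has 648 CPM, and the CyrKO libraries lie at 142 CPM or less at sums between 2.10 and 4.96.

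A second set of Mir7DKO cerebella gave almost the WT level. In experiment 2 Cdr1as stood at 1064, 1016 and 1190 CPM in Mir7DKO, against 1007, 1194, 960 and 1119 CPM in WT. The groups lay inside each other, and the change was 0.03 (SE 0.064, 95% interval -0.11 to 0.16, adjusted p = 0.975 by edgeR), which leaves room for a rise of at most 1.12-fold within the interval. Choroid plexus markers summed to 709, 454 and 31.5 CPM in these Mir7DKO cerebella and 32.4 to 38.0 CPM in WT, and with their log2 sum in the fit the change was 0.14 (SE 0.086, adjusted p = 0.7047 by edgeR). The background there was 0.198%, and 78.8% of genes changed by at least as much. The effect in experiment 2 minus that in experiment 1B was -0.38 (SE 0.21, 95% interval -0.82 to 0.07, adjusted p = 0.9992 in the edgeR interaction test), with 0% of genes past that test.

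In Mir7DKO cortex Cdr1as stood at 467, 446 and 672 CPM, against 504, 351, 376 and 504 CPM in WT cortex. Mir7DKO replicate 3 lay above every WT library and the other 2 lay between them. The mean was 528 ± 125 CPM in Mir7DKO (SD, n = 3) and 434 ± 81.8 CPM in WT (n = 4), and the log2 change was 0.29 (SE 0.125, 95% interval 0.02 to 0.55 before adjustment, adjusted p = 0.8485 by edgeR). The background was 0.0436% of genes called, and 7.07% changed by at least as much. Without Mir7DKO replicate 3 the change was 0.07 (SE 0.11). With no filter on low counts the same change of 0.29 passed, at an edgeR adjusted p of 6.497e-06, with an SE of 0.049. Choroid plexus markers summed to 14.5 to 17.7 CPM in these Mir7DKO cortices and 15.4 to 391 CPM in WT, and with their log2 sum in the fit the change was 0.39 (SE 0.17, adjusted p = 0.8785 by edgeR). The effect in cerebellum minus that in cortex was -0.26 (SE 0.16, 95% interval -0.59 to 0.08, adjusted p = 1 by edgeR; background 0.155%).

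The host gene passed in no Mir7DKO group, though each group had 1 library outside the range of its WT libraries. In experiment 1B C230004F18Rik was at 25.2, 15.9, 12.6 and 12.3 CPM in Mir7DKO and 18.1, 19.9, 12.96 and 12.2 CPM in WT, a log2 change of 0.05 (SE 0.22). With the sum of RNAs without a poly(A) tail in the fit, that change was 0.39 (SE 0.16, adjusted p = 0.9992 by edgeR), a move opposite to that of Cdr1as. Relative to group means, the correlation of the host with that sum was -0.63 over the 12 libraries of experiment 1B, a description only. In experiment 2 it averaged 13.96 ± 1.22 CPM in Mir7DKO cerebellum (SD, n = 3) and 14.4 ± 1.14 CPM in WT cerebellum (n = 4), a change of -0.05 (SE 0.11). In cortex it averaged 13.54 ± 2.11 CPM in Mir7DKO (n = 3) and 13.55 ± 2.06 CPM in WT (n = 4), a change of 0.02 (SE 0.13). None passed with edgeR (adjusted p of 0.9684 to 0.9997). Mir7DKO replicate 1 of experiment 1B, with the most host RNA of its group, had the least Cdr1as.

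The CyrKO and Mir7DKO cerebella of experiment 1B could be compared directly, with no WT library involved. Cdr1as was lower in CyrKO than in Mir7DKO by a log2 change of -3.41 (SE 0.161), which is 9.38% of the Mir7DKO level (95% interval 7.37 to 11.9%; adjusted p = 7.924e-08 by edgeR; background 0.0507%). The host gene differed by 0.07 (SE 0.20, 95% interval -0.36 to 0.50, adjusted p = 0.919). Within experiment 1B the Cdr1as levels thus ran from Mir7DKO over WT to CyrKO, and the neighbours Mir7DKO and WT did not differ past the test. In experiment 2 they ran from Mir7DKO cerebellum and WT cerebellum to Mir7DKO cortex and WT cortex, and in neither tissue did the genotypes differ past the test, although Mir7DKO replicate 3 of cortex lay above every WT cortex.

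**Figure D4:**
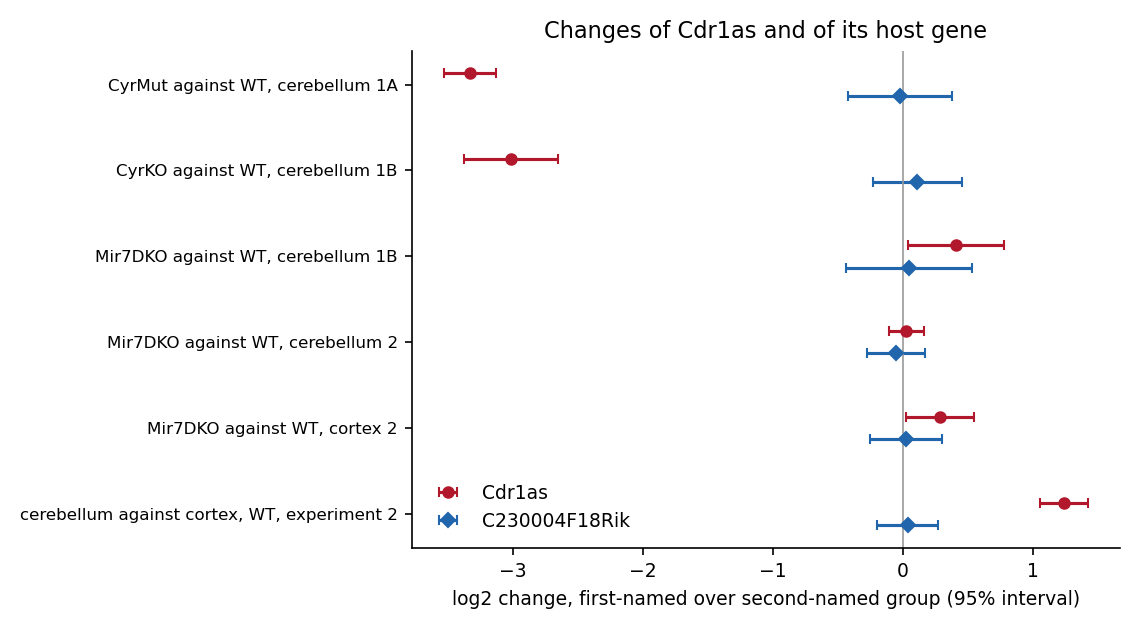
Log2 change of Cdr1as (circles) and C230004F18Rik (diamonds) in the 6 comparisons, first-named over second-named group, with 95% intervals from the edgeR fit. Cdr1as lies near -3 in CyrMut and CyrKO and at 1.24 for cerebellum over cortex, and every interval of the host gene includes 0.

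Cerebellum held more Cdr1as than cortex, with no such difference in host RNA. In WT mice of experiment 2 Cdr1as stood at 985, 1167, 939 and 1098 CPM in cerebellum, against 516, 358, 384 and 514 CPM in cortex. The tissues did not overlap. The log2 difference was 1.24 (SE 0.088), 2.36-fold (95% interval 2.08 to 2.68; adjusted p = 9.763e-12 by edgeR). This comparison called 74.7% of genes (37.3% higher in cerebellum, 37.4% lower), and 34.1% were higher in cerebellum without overlap, so the call itself is common between these tissues; 19.1% of genes differed by at least as much as Cdr1as. C230004F18Rik was at 13.2, 13.4, 14.2 and 15.7 CPM in cerebellum, against 10.9, 14.5, 15.8 and 14.1 CPM in cortex, a difference of 0.03 (SE 0.11, 95% interval -0.20 to 0.27, adjusted p = 0.7857). The 6 RNAs without a poly(A) tail summed to 2.70 to 5.10 CPM in these cerebella and 1.46 to 4.36 CPM in these cortices. The 1 of them that passed the filter on low counts was called higher in cerebellum by edgeR (0.75). Whether the capture of RNA without a tail differed between the tissues was not tested. The tissue labels fitted their markers. Purkinje cell genes summed to 7136 to 7469 CPM in cerebellum and 939 to 986 CPM in cortex, and cortical projection neuron genes to 8.50 to 10.2 CPM in cerebellum and 372 to 467 CPM in cortex.

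The ratio of Cdr1as to host counts within a library takes depth out of the comparison. It does not take out differences in the capture of RNA without a tail. Relative to group means, Cdr1as and host correlated with the sum of such RNAs at 0.61 and -0.63 in experiment 1B. In experiment 2 these correlations were -0.38 and 0.00401. The ratio compares libraries only, because the length behind the authors' Cdr1as feature is not stated. Whether their host counts include reads of the shared exon is not stated either. Each library of CyrMut held 6.11, 8.14, 6.58 or 6.71 Cdr1as counts per host count, against 56.1, 79.2 and 75.4 in WT. In CyrKO the ratios were 9.55, 6.14, 6.73 and 5.76, against 35.7, 49.4, 78.3 and 94.2 in WT. The geometric means were 6.85 in CyrMut and 6.90 in CyrKO, against 69.5 and 60.1 in the WT groups of their own experiments, which also differed in spread. The mutants came from different experiments, and their ratios were not tested against each other. The ratio was 10.2-fold lower in CyrMut and 8.70-fold lower in CyrKO than in its own WT.

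Elsewhere the ratio followed Cdr1as. In Mir7DKO cerebella of experiment 1B it was 40.4, 80.0, 129 and 90.7, overlapping that of WT. In experiment 2 it was 74.2 to 82.1 in Mir7DKO cerebella and 66.2 to 86.7 in WT cerebella, and 32.9 to 42.7 in Mir7DKO cortices and 24.2 to 47.0 in WT cortices. WT cerebella lay above all WT cortices, 2.33-fold on the geometric mean. By exact two-sided permutation tests over libraries p was 0.0571 in CyrMut and 0.0286 in CyrKO and between tissues, each the smallest p its design allows, and 0.4 to 0.514 in the Mir7DKO comparisons. Adjusted over the 6 comparisons these became 0.114, 0.0858, 0.0858 and 0.514, but at these sample sizes the adjusted p could not have gone under 0.05 whatever the values.

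**Figure D5:**
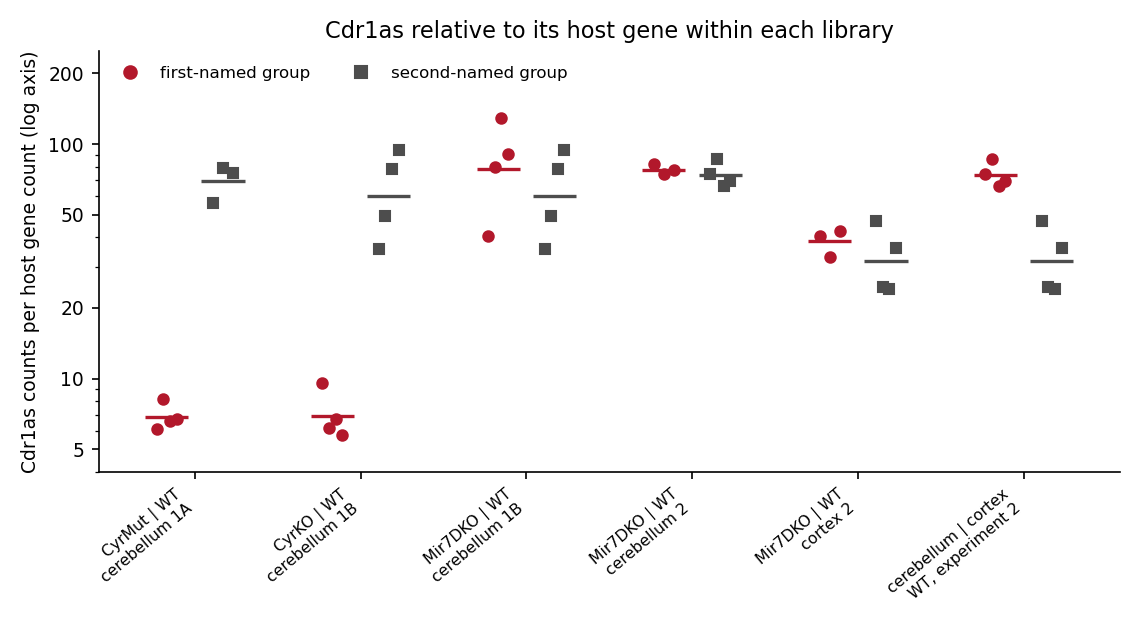
Cdr1as counts per count of C230004F18Rik in each library (log axis), by comparison, with the geometric mean of each group as a bar. CyrMut and CyrKO libraries lie between 5.76 and 9.55, and no WT cerebellum lies under 35.7.

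Cdr1, the antisense protein-coding gene first described as an autoantigen of paraneoplastic cerebellar degeneration, was almost without counts. Over the 33 libraries it had 4 counts, and 30 libraries had 0. The counts were 2 in Mir7DKO replicate 2 and 1 each in WT replicates 2 and 4, all of experiment 1B. The 21 libraries of the other experiments had 0, and a count of 0 allows up to 3 in a library for counting error alone. The 2 tables of experiment 1B disagree on WT replicate 3, listing 0 counts of Cdr1 beside CyrKO and 1 beside Mir7DKO, the single feature in which the WT counts of both tables differ. These counts carry no fold change and no test, and the ratio of Cdr1 to Cdr1as planned for each comparison was left out with them. The kit keeps strand, but no source used here states whether the counting used it. A read over both annotated features can be set aside as ambiguous when strand is ignored, so a count near 0 does not show that Cdr1 was absent.

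The other RNAs of the network were read from the same fits. Cyrano (1700020I14Rik) averaged 1960 ± 36.6 CPM in CyrMut (SD, n = 4) and 1695 ± 161 CPM in WT (n = 3). Its log2 change there was 0.21 (SE 0.061, adjusted p = 0.9436 by edgeR). In Mir7DKO its changes were -0.03 (SE 0.090) and 0.09 (SE 0.048) in the cerebella of experiments 1B and 2, and 0.20 (SE 0.055, adjusted p = 0.637) in cortex. Like Cdr1as it was higher in WT cerebellum than in WT cortex, at 1642 ± 51.6 and 875 ± 32.1 CPM (n = 4 each; 0.91, SE 0.040). Hnrnpk, an RNA-binding protein gene that hosts Mir7-1, and Chpf2, a chondroitin-synthesis gene that hosts Mir671, passed in no mutant. Between tissues Hnrnpk was higher in cerebellum (0.63, SE 0.044) and Chpf2 lower (-0.74, SE 0.075). Mir671 and Mir7-2 had 0 counts throughout. Mature microRNAs are not measured in such libraries.

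Of 4 lists of genes around the known biology of Cdr1as, no member passed in a mutant. They were 11 genes of Argonaute, its TNRC6 partners and the ZSWIM8 ubiquitin ligase of target-directed microRNA decay, 14 genes of circular RNA formation, export and decay, 7 genes reported as changed in brains without Cdr1as, and Cdr2 with Cdr2l. All 34 genes were tested in all 5 mutant comparisons, and of these 170 tests 0 passed with edgeR, 0 with DESeq2, and 10 had an unadjusted p under 0.05. Over all genes tested, 740 of 14866 had such a p in CyrMut, 1004 of 13664 in CyrKO, 516 of 14031 in Mir7DKO of experiment 1B, 959 of 14146 in Mir7DKO cerebellum of experiment 2 and 793 of 13754 in Mir7DKO cortex, so the count over the lists is near the background. In that order their median log2 changes in CyrMut were 0.04, -0.00103, -0.04 and 0.06, beside -0.00268 over all genes tested. In CyrKO they were 0.04, -0.00298, -0.45 and -0.01, beside -0.00157 over all genes tested. The list with the lowest median in CyrKO holds activity-induced genes such as Fos and Egr1, whose log2 changes there were -0.94 to 0.18, with 1 of 7 at an unadjusted p under 0.05. Its medians in Mir7DKO had the other sign, at 0.083 in experiment 1B, 0.0905 in cerebellum of experiment 2 and 0.197 in cortex.

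Between tissues most list members passed, beside 37.3% of all genes called higher in cerebellum and 37.4% called lower. DESeq2 called fewer members than edgeR in 3 of the lists: 8 against 9 of the Argonaute and decay genes, 9 against 11 of the circular RNA genes and 3 against 6 of the Cdr1as-loss genes. Of the 11 Argonaute and decay genes 8 were higher in cerebellum and 1 lower, led by Tnrc6a, a scaffold of miRNA silencing (0.88, SE 0.044), and Tnrc6b (0.38, SE 0.046). Of the 14 circular RNA genes 8 were higher and 3 lower, and the log2 differences over the list ran from -2.65 to 0.878. The editing enzyme Adarb1 (0.68, SE 0.041) and the helicase Upf1 (0.71, SE 0.053) were higher. Of 7 genes of the Cdr1as-loss list 5 were lower, led by Egr1 (-2.38, SE 0.084), and Irs2 was higher. Cdr2 (0.96, SE 0.097) and Cdr2l (1.30, SE 0.063), the genes of the other cerebellar degeneration antigens, were both higher in cerebellum.

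Around the locus few genes were expressed. Within 1 Mb of the host gene the tables held 34 genes, of which 3 or 4 besides C230004F18Rik passed the filter in any comparison. Among these were Mcf2, a guanine nucleotide exchange factor, Ldoc1, a retrotransposon-derived gene, and the pseudogenes Hspa9-ps1 and Gm715. None passed in a mutant with edgeR or DESeq2, and 1 of these tests had an unadjusted p under 0.05. The log2 change of Ldoc1 was -0.02 (SE 0.13) in CyrMut and -0.03 (SE 0.16) in CyrKO, and that of Mcf2 was 0.27 (SE 0.22) in CyrMut and -0.11 (SE 0.19) in CyrKO. Between tissues all 4 tested neighbours passed. Ldoc1 (4.29, SE 0.20) was higher in cerebellum, and Mcf2 (-1.30, SE 0.18) and Gm715 (-1.93, SE 0.38) lower.

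Likeness over libraries was measured as the Pearson correlation of log2 CPM, centred on the WT libraries of the same experiment and tissue, over 33 libraries and 10350 genes. The genes most like Cdr1as were Fndc4 (r = 0.84), Iglon5 (r = 0.77) and 1500009C09Rik (r = 0.77). Fndc4 encodes a fibronectin type III protein and Iglon5 a neuronal cell-adhesion molecule. Their own changes were small beside that of Cdr1as: Fndc4 averaged 55.1 ± 3.60 CPM in CyrMut (n = 4) and 62.1 ± 3.66 CPM in WT (n = 3), a change of -0.18 (SE 0.069), and 54.4 ± 1.40 and 64.6 ± 3.02 CPM in CyrKO and WT (n = 4 each; -0.25, SE 0.062, adjusted p = 0.6768 by edgeR). In both mutants of Cyrano the changes of all 3 lay between -0.18 and -0.25 and none passed; their sign follows from choosing them by likeness to Cdr1as over the same libraries. The correlation is a description of points that share experiments and WT libraries. Among the genes most like the host were Pura (r = 0.83) and 4932438A13Rik (r = 0.81).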

How the data were processed

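Libraries were stranded and poly(A)-selected, per the labels' protocols. STAR 2.4, HTSeq 0.6.1p1 and DESeq2 1.10 stand in the submitters' processing notes; no source used here gives the annotation release or strand setting. Per the file headers, the deposited tables hold counts per gene, a size-factor normalised signal and its mean, and the authors' DESeq2 log2 fold change, Wald score and p-values, which were not used. For testing, edgeR 4.0.16 (R 4.3.3) was run on the counts of each comparison's libraries: filterByExpr with a minimum count of 10, TMM, the quasi-likelihood F-test, and a threshold of 0.05 after adjustment over all genes. DESeq2 1.42.0 was the other tool. SE is the size of the log2 change over the root of F. Ratios used a pseudocount of 0.5. Library totals, 6.888 to 24.94 M counts, and the spread between libraries set the precision. Cdr1 stayed under the filter, so its planned tests were not made. Scripts were tested on simulated data. Genes named were the members, up to 4 called genes of each list by p, Cyrano and the 2 microRNA host genes, tested genes within 1 Mb, and the 3 most alike genes; others (such as Irs2) were named after their values were seen. Some genes under this rule are not reported here. The members and lists were chosen with earlier results of these data known. No 2 libraries of a group agreed within sampling noise.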

Additional observations from a re-analysis of the deposited data

How the results depend on the processing

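Of 357 alternatives to 26 results on Cdr1as and its host, 309 kept direction and side of the threshold, 29 reversed, 18 weakened and 1 strengthened; the cause of these was not tested. Cdr1as stayed called in CyrMut, in CyrKO, between tissues and in CyrKO against Mir7DKO under every alternative run, and without 1 replicate each its log2 change was -3.39 to -3.25, -3.16 to -2.91, 1.15 to 1.32 and -3.52 to -3.26. It was called in Mir7DKO cortex (0.286) with no filter on low counts. Leaving out 1 replicate took it through 0 in Mir7DKO cerebellum of experiment 2 (-0.041 to 0.084). C230004F18Rik lay near 0 and changed sign without 1 replicate in CyrMut (-0.16 to 0.26), CyrKO (-0.0055 to 0.23), Mir7DKO of experiment 1B (-0.21 to 0.17), of experiment 2 (-0.12 to 0.0054) and of cortex (-0.10 to 0.10), between tissues (-0.066 to 0.11), in CyrKO against Mir7DKO (-0.043 to 0.31), and in the differences between CyrKO and CyrMut effects (-0.15 to 0.27), between Mir7DKO effects in cerebellum and cortex (-0.16 to 0.052) and between those in experiments 2 and 1B (-0.21 to 0.16). It also changed sign with the index of RNAs without poly(A) tail in CyrMut (0.084), Mir7DKO cerebellum of experiment 2 (0.014) and cortex (-0.0087), and with the choroid plexus index in that cerebellum (0.080). Without a change of sign, it moved most with the first index in Mir7DKO of experiment 1B (0.05 to 0.39) and with the second in CyrMut (-0.02 to -0.30), and passed in neither. Replicate numbers were not used as pairs in the main fits, since in no comparison did every same-numbered pair correlate above 0.1. That rule cannot exclude pairing: in Mir7DKO and WT cortex the pairs correlated at 0.083 to 0.159. The main fits between tissues treated each library of experiment 2 as independent. Whether cerebella and cortices shared mice was examined only through same-numbered WT libraries, which correlated at -0.0578 to 0.0146. That cannot settle the question, since mice shared under other numbers would not show there. With the replicate block the host change in Mir7DKO cerebellum of experiment 2 was 0.0071, and the ratio had p = 0.125, the smallest that exact permutation within 4 pairs allows, in CyrKO (-3.12) and between tissues (1.22). Fewer libraries also took the ratio to p = 0.0571, the smallest their exact permutation test allows, in CyrKO (-3.37 to -2.90) and between tissues (1.09 to 1.41). Genes called without the filter were 43 in CyrMut (1 with it), 10 in CyrKO (3), 4 in Mir7DKO of experiment 1B (1), 184 of experiment 2 (28) and 48 in cortex (6). DESeq2 called 4 in CyrMut and 3 in Mir7DKO of experiment 1B, and the replicate block 2 in the same Mir7DKO comparison and 19 in cortex. Without 1 replicate the counts were 1 to 17 (the most without CyrMut replicate 2), 3 to 10 (WT replicate 4), 0 to 2, 3 to 70 (the fewest without WT replicate 1 or 2, the most without Mir7DKO replicate 3) and 4 to 11 (WT replicate 1). Host counts of 79 to 495 a library limit its precision more than Cdr1as's.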
